A study of Rattus norvegicus with 48 samples.

Results

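The ethanol by enrichment interaction in the amygdala was examined in 24 of the 48 small RNA libraries of the series, namely every library made from amygdala. The interaction asks whether housing acted differently after prenatal ethanol, and for each miRNA name it is the difference on the log2(RPM + 1) scale (ethanol enriched minus ethanol non-enriched) minus (saline enriched minus saline non-enriched). A positive value means that the enriched minus non-enriched difference was greater after ethanol than after saline. All rats were Long Evans rats killed on postnatal day 42 after a social interaction test, and the dams of every group had been injected on gestational day 12, with ethanol or with an equal volume of saline. From weaning on, non-enriched rats lived with littermates of their own sex, and enriched rats with unfamiliar rats of their own age and sex born to untreated dams. Enriched ethanol-exposed rats thus had unexposed cage mates in place of exposed littermates, whereas cage mates after saline were never exposed to ethanol. The interaction cannot tell this difference apart from a different response to housing. Each group held 6 libraries, 3 of female pools (F1, F2 and F3) and 3 of male pools (M1, M2 and M3), and each library was made from a pool of amygdala RNA of 3 rats of one sex and group. Pools were therefore the units of the tests, and p-values measure the spread between pools. Ethanol was given to dams and housing to cages, and the sources do not say how many litters or cages fed each group. Pools that share a litter or a cage would not be independent, and no p-value here allows for that. The whole amygdala was dissected, so that in these bulk samples fewer cells of a type and less of a miRNA per cell cannot be told apart.

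miRNAs are short RNAs that are cut from a hairpin precursor and guide the silencing complex to messenger RNAs. Pairing is led by the seed, the stretch near the 5′ end of the mature strand, so that miRNAs with the same seed share many of their predicted targets. Many miRNAs of the brain come from clusters of hairpins that are transcribed together. In the sequences, all from RefSeq (GRCr8, where the reads themselves were aligned to Rn5), capitals mark the seed, bases 2 to 8. Of the 37 mature names described, 36 were found in that table. The names with the smallest interaction p are shown first because 2 seeds recur among them. miR-221-3p and miR-222-3p carry the seed GCUACAU, and miR-195-5p and miR-497-5p carry AGCAGCA, the seed of the miR-15 and miR-16 family.
miR-221-3p: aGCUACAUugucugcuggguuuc
miR-222-3p: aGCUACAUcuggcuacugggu
miR-221-5p: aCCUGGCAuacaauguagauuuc
miR-195-5p: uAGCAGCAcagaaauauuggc
miR-497-5p: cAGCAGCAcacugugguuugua

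The other names with a small p each had a seed of their own, and the 2 arms of the mir-299a hairpin are given because it was their precursor that had the small p. miR-9a-3p is shown as a strand of the neuronal miR-9.
miR-218a-5p: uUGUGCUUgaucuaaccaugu
miR-106b-5p: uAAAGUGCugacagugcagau
miR-299a-5p: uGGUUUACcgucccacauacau
miR-299a-3p: uAUGUGGGacgguaaaccgcu
miR-872-3p: uGAACUAUugcaguagccuccu
miR-325-3p: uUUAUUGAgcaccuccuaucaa
miR-9a-3p: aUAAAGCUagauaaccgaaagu

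The miRNAs of the list that the study described as reversed by enrichment are shown for comparison, together with a marker of the choroid plexus, miR-448-3p. miR-384-5p has the seed GUAAACA of the miR-30 family.
miR-204-5p: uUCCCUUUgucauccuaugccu
miR-384-5p: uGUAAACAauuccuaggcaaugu
miR-301b-3p: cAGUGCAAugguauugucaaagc
miR-6329: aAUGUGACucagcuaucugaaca
miR-448-3p: uUGCAUAUguaggauguccca

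The deposited table gave a level for 1063 names, 612 mature and 451 precursor, in which mature names and precursor names were scaled apart, each to a total of 1000000 (here called RPM). A name was tested if it was above 0 in at least 6 of the 24 libraries, which left 910 names, 498 mature and 412 precursor. Fractions of a read counted as above 0, so the 910 include names with almost no signal, such as mir-126b (mean 1.7e-07 RPM). A precursor and its mature arms can be counted from the same reads, so they are not independent of each other. They need not hold the same reads, since mir-222 had a mean of 1428 RPM and miR-222-3p one of 112 RPM. Mature reads per library, recovered from the worth of 1 read, ranged between 363141 and 1287699, with group medians of 891450 in the saline non-enriched, 1023638 in the saline enriched, 806858 in the ethanol non-enriched and 780741 in the ethanol enriched libraries. A level of 3 reads, taken as the floor, corresponded to between 2.33 and 8.26 RPM for mature names. It covers counting error only, since reads amplified by PCR are not independent molecules. No list of miRNAs that sets the amygdala apart from other brain regions was used. The mature neuronal names (of miR-124, miR-9a, miR-128, miR-137, miR-153, miR-7a and miR-7b) added up to between 42703 and 68696 RPM per library, so that neuronal miRNAs were abundant in every library. The libraries were sequenced in sets of 8 that the labels do not give, so an effect of the set cannot be told apart.

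No name passed the test after adjustment. With limma, the count at an adjusted p under 0.05 was 0 of the 910 names (lowest value, adjusted p = 0.957), and 35 names (3.85%) had an unadjusted p under 0.05, where 45.5 would be given by chance. Of the 35 names, 23 (2.53%) had a positive and 12 (1.32%) a negative interaction, and the median over all 910 names was 0.03. Among mature names 22 of 498 (4.42%) had an unadjusted p under 0.05, and among precursor names 13 of 412 (3.16%). The adjusted count was 1 without male saline non-enriched replicate M3, when mir-802 had an adjusted p of 0.00743, and the unadjusted count was 57 without female ethanol non-enriched replicate F3. The standard error of the interaction had a median of 0.35 over the 910 names, which limits what could be detected. By a permutation test with 100000 reassignments of the 24 libraries, 36 names had an unadjusted p under 0.05, 30 of them among the 35. That test set ethanol enriched and saline non-enriched libraries against the others and shuffled across sex, exposure and housing. Unlike the limma fit, it makes no allowance for effects of these on their own. Counts and rankings by p use limma's unadjusted p, and the p given with a single name is that of the permutation test, likewise unadjusted. Of names with a mean of at least 10 RPM and the same direction in both sexes, the 12 with the smallest p are called the leading names, and the adjusted p of each was 0.957. They were thus chosen by their interaction, and their levels describe what it consisted of. A housing effect is a part of the interaction, so its p in a name chosen this way is no separate support. The same holds where libraries of such a name are said to lie apart. How often such partial separation of libraries occurred was not counted over the 910 names.

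Each of the 2 housing effects that make up the interaction rests on 12 libraries of its own. After ethanol, 24 of 910 names (2.64%) differed between enriched and non-enriched libraries at an unadjusted p under 0.05, 14 (1.54%) with the higher level in enriched libraries and 10 (1.1%) with the lower. After saline, 24 names (2.64%) did so, 9 (0.989%) higher and 15 (1.65%) lower. None passed after adjustment, with smallest adjusted p of 0.215 after ethanol and 0.544 after saline. In all 35 names with an interaction p under 0.05 the housing effects had opposite signs, against 510 of all 910 names, which follows in part from the way the interaction is made. The housing effect was the larger one after ethanol in 17 of the 35 and after saline in the others. The ethanol non-enriched group had the lowest mean log2 level of the 4 groups in 15 of the 23 positive names, whereas this was so for 399 of all 910 names. A positive interaction by itself favours a low level in that group, so this comparison cannot show an excess. Of the 35 names, 21 had a mean of at least 10 RPM over the 24 libraries, and 18 of those 21 were positive, where 345 of all 582 names at that level were. The ethanol non-enriched group was the lowest in 10 of those 21 and in 300 of the 582. With median-ratio rescaling 18 positive and 13 negative names had a p under 0.05.

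**Figure D1:**
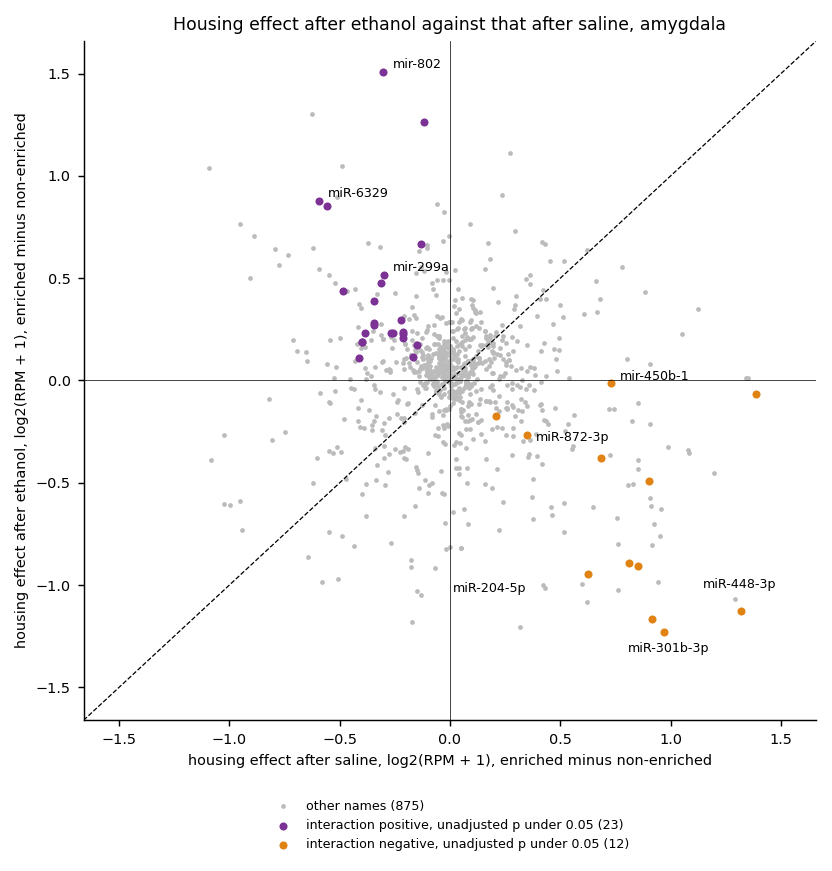
Housing effect after ethanol (vertical axis) against the housing effect after saline (horizontal axis) for the 910 tested names, both as differences of mean log2(RPM + 1), enriched minus non-enriched, with the dashed line at equal effects. Purple points are the 23 names with a positive and orange points the 12 with a negative interaction at an unadjusted p under 0.05, and they lie in the upper left and the lower right.

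The mir-221 and mir-222 hairpins lie 561 bases apart on chromosome X in GRCr8 (miR-222-3p at chrX:6022682-6022702, plus strand, miR-221-3p at chrX:6023246-6023268, plus strand), and their mature strands are best known for repressing the cell cycle inhibitor Cdkn1b. All 5 of their tested names had a positive interaction with an unadjusted p under 0.05, against 2.53% of all names. The 5 are not separate results, since a precursor and its strands can be counted from the same reads and the hairpins lie close together. The list was also chosen with earlier results of these data known, so the count is no evidence of an excess. miR-221-3p, the most abundant of the mature strands, had lowest, median and highest levels of 1895, 2033 and 2374 RPM in the saline non-enriched, 1589, 1729 and 1927 in the saline enriched, 1257, 1603 and 2242 in the ethanol non-enriched and 1520.3, 1955 and 2262 in the ethanol enriched libraries. The group median was lower in enriched than in non-enriched libraries after saline and higher after ethanol, with overlap in both cases. The mean was 2090.4 ± 189.7 RPM (SD, n = 6) in the saline non-enriched and 1737 ± 138 in the saline enriched libraries, and 1646 ± 401 in the ethanol non-enriched and 1902 ± 267 in the ethanol enriched libraries. On the log2 scale the housing effect was 0.23 (SE 0.13) after ethanol and -0.27 (SE 0.13) after saline. The interaction was 0.50 (SE 0.19, permutation p = 0.0113), with a 95% interval of 0.10 to 0.90. By the exact permutation test the housing effect had a p of 0.00433 after saline and 0.19 after ethanol.

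miR-222-3p, with the same seed, had lowest, median and highest levels of 102, 122 and 148 RPM in the saline non-enriched, 98.7, 104 and 115 in the saline enriched, 66, 97.5 and 131 in the ethanol non-enriched and 97.6, 129 and 138 in the ethanol enriched libraries. The ethanol non-enriched group spread the most, from replicate F1 at 66 RPM to replicate M3 at 131 RPM, and overlapped every other group. Its interaction was 0.52 (SE 0.20, permutation p = 0.00922). miR-221-5p, the other strand of the mir-221 hairpin, was far less abundant, with levels of 39.6, 53.2 and 59.2 RPM in the saline non-enriched, 27.4, 43.1 and 55.4 in the saline enriched, 29.3, 32.2 and 56.5 in the ethanol non-enriched and 38.8, 52 and 70.1 in the ethanol enriched libraries. All ethanol non-enriched libraries but replicates F3 and M3 lay below every saline non-enriched and every ethanol enriched library. The interaction of miR-221-5p was 0.79 (SE 0.29, permutation p = 0.00622), on means of 30.7 to 43 reads per group. The precursors had interactions of 0.49 (SE 0.20, permutation p = 0.0147) for mir-221 and 0.42 (SE 0.18, permutation p = 0.0122) for mir-222. For mir-222 the saline groups did not overlap, since the enriched libraries reached 1436 RPM at most and the non-enriched ones began at 1464 RPM. Such separation was found for 3 of 910 names after saline (0.33%) and for 1 after ethanol (0.11%).

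miR-195-5p and miR-497-5p belong to the miR-15 and miR-16 family, which represses cyclins and other genes of the cell cycle, and their hairpins lie 324 bases apart on chromosome 10 (miR-497-5p at chr10:55450172-55450193, plus strand, miR-195-5p at chr10:55450509-55450529, plus strand). miR-497-5p had lowest, median and highest levels of 80.4, 94.3 and 107 RPM in the saline non-enriched, 60.7, 72.7 and 80.1 in the saline enriched, 40.3, 76.2 and 147 in the ethanol non-enriched and 80.7, 92.7 and 107 in the ethanol enriched libraries. After saline the groups did not overlap, as was found for 3 of 910 names (0.33%). The highest enriched library was at 80.1 RPM and the lowest non-enriched one at 80.4 RPM. After ethanol the groups overlapped widely, because the non-enriched libraries held both the lowest value of all, replicate M2, and the highest, replicate F1. The housing effect was 0.27 (SE 0.17) after ethanol and -0.35 (SE 0.17) after saline, and the interaction was 0.62 (SE 0.24, permutation p = 0.0251). The exact permutation test of the saline groups gave p = 0.00216, the smallest p that 6 against 6 libraries allow. That saline difference is a part of the interaction by which miR-497-5p was chosen, so this p is no separate support.

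miR-195-5p had lowest, median and highest levels of 225, 306 and 375 RPM in the saline non-enriched, 196, 259.5 and 309 in the saline enriched, 204, 274 and 335 in the ethanol non-enriched and 242, 319 and 399 in the ethanol enriched libraries. All 4 groups overlapped, and the ethanol enriched libraries included the highest value, replicate F3 at 399 RPM. Its interaction was 0.45 (SE 0.18, permutation p = 0.0348), and neither housing effect alone passed an exact permutation test (p = 0.154 after ethanol and 0.165 after saline). With median-ratio rescaling the limma p of miR-195-5p was above 0.05, as were those of miR-325-3p, mir-195 and mir-497. The precursors gave 0.44 (SE 0.17, permutation p = 0.0511) for mir-195 and 0.63 (SE 0.25, permutation p = 0.0293) for mir-497. The 3 other tested miRNAs with the seed AGCAGCA had smaller interactions, 0.14 (SE 0.26, permutation p = 0.659) for miR-15b-5p, 0.10 (SE 0.14, permutation p = 0.483) for miR-16-5p and 0.05 (SE 0.21, permutation p = 0.799) for miR-322-5p. They lie elsewhere in the genome, and the differences from miR-195-5p and miR-497-5p were not tested.

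miR-218a-5p is a neuronal miRNA encoded within the Slit genes, which guide axons. Its lowest, median and highest levels were 1856, 2195 and 2826 RPM in the saline non-enriched, 1299.6, 1759 and 2215 in the saline enriched, 1545, 2128 and 2328 in the ethanol non-enriched and 1899, 2359 and 3066 in the ethanol enriched libraries. Enriched and non-enriched libraries overlapped after saline and after ethanol, where replicate M1 of the enriched group was the highest library of all at 3066 RPM. The fold, enriched over non-enriched, was 0.772 after saline and 1.17 after ethanol. Its interaction was 0.62 (SE 0.22, permutation p = 0.0107), nearly the same in females (0.60, SE 0.31) and in males (0.63, SE 0.31), over 1507 to 1878 mean reads per group. It was the most abundant of the leading names. Its precursors gave 0.59 (SE 0.24, permutation p = 0.0205) for mir-218a-1 and 0.59 (SE 0.29, permutation p = 0.0436) for mir-218a-2. mir-218b, a separate hairpin annotated over mir-218a-1, gave 0.58 (SE 0.24, permutation p = 0.0205), and reads from the overlapping hairpins cannot be told apart.

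miR-106b-5p, of the miR-106b cluster in the replication gene Mcm7 and with the seed of the miR-17 family, had lowest, median and highest levels of 19.3, 25.3 and 27.3 RPM in the saline non-enriched, 14.4, 17.3 and 22.3 in the saline enriched, 17.1, 20.2 and 24.2 in the ethanol non-enriched and 18.9, 21.8 and 25.8 in the ethanol enriched libraries. The difference lay mainly after saline, where 5 of 6 enriched libraries were below 5 of 6 non-enriched ones, while the ethanol groups largely overlapped. Its housing effect was 0.11 (SE 0.13) after ethanol and -0.41 (SE 0.13) after saline, and the interaction was 0.52 (SE 0.19, permutation p = 0.0036). It was measured with only 15.7 to 20 mean reads per group. The interaction was -0.00 (SE 0.19, permutation p = 0.988) for the precursor mir-106b and -0.04 (SE 0.36, permutation p = 0.896) for the other strand, miR-106b-3p. Of the same seed, AAAGUGC, miR-17-5p gave 0.11 (SE 0.38, permutation p = 0.779), miR-20a-5p 0.29 (SE 0.40, permutation p = 0.464) and miR-93-5p -0.12 (SE 0.20, permutation p = 0.553). The differences from miR-106b-5p were not tested. Of the 30 tested names of the miR-17-92 and miR-106b-25 clusters, miR-106b-5p was the only one with a p under 0.05.

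mir-299a is a hairpin of the imprinted miR-379 to miR-410 cluster on chromosome 6, which is expressed from the maternal chromosome and is large in the brain. The precursor had lowest, median and highest levels of 25.7, 37.9 and 41 RPM in the saline non-enriched, 19.1, 29.7 and 34 in the saline enriched, 14, 23.5 and 34 in the ethanol non-enriched and 26.1, 31.9 and 44.5 in the ethanol enriched libraries. After ethanol 5 of the 6 non-enriched libraries lay below 5 of the 6 enriched ones, the exceptions being a non-enriched library, replicate F1, at 34 RPM and an enriched one at 26.1 RPM. The mean of mir-299a was 23.8 ± 7.28 RPM (SD, n = 6) in ethanol non-enriched and 33.6 ± 6.24 in ethanol enriched libraries, a fold of 1.41 (exact permutation p = 0.0325). After saline it was 34.8 ± 6.59 RPM in non-enriched and 28.1 ± 5.32 in enriched libraries, a fold of 0.807 (exact permutation p = 0.0996). The interaction was 0.82 (SE 0.28, permutation p = 0.00422), 0.45 in females and 1.18 in males. Its mature strands, printed earlier, gave 1.41 (SE 0.71, permutation p = 0.0244) for miR-299a-5p and 0.67 (SE 0.55, permutation p = 0.323) for miR-299a-3p.

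Over the whole imprinted cluster, 4 of 82 tested names had a positive and 1 a negative interaction with a p under 0.05, against 2.53% and 1.32% of all names, and the median was 0.09, against 0.03 for all names. The nearest hairpin to mir-299a, mir-411, lies 475 bases away, and its strands gave 0.20 (SE 0.44, permutation p = 0.623) for miR-411-5p and 0.00 (SE 0.43, permutation p = 0.999) for miR-411-3p. Beside mir-299a, the names with a p under 0.05 were mir-496 at 0.73 (SE 0.34, permutation p = 0.0351) with miR-496-3p at 0.92 (SE 0.42, permutation p = 0.0341), miR-541-3p at 1.38 (SE 0.52, permutation p = 0.0213) and, with the opposite sign, mir-544 at -1.45 (SE 0.64, permutation p = 0.0556). miR-541-3p was listed at 0 in all 6 ethanol non-enriched libraries and at between 0 and 2.75 RPM in the ethanol enriched ones, and no library of any group was above 3 reads. In the neighbouring imprinted group around Rtl1, 0 of 28 names had a p under 0.05, and the median was 0.07. There, miR-493-5p had 0.44 (SE 0.24, permutation p = 0.0981) and miR-493-3p -1.01 (SE 0.54, permutation p = 0.178).

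miR-872-3p had the smallest p of the negative names and of all leading names. Its lowest, median and highest levels were 75.5, 90.3 and 99.4 RPM in the saline non-enriched, 92.6, 113 and 132 in the saline enriched, 69.1, 97.5 and 129 in the ethanol non-enriched and 64.7, 76.6 and 106 in the ethanol enriched libraries. After saline 5 of the 6 enriched libraries lay above every non-enriched one, and the ethanol groups overlapped over most of their range. The mean of miR-872-3p was 88.6 ± 10.4 RPM (SD, n = 6) against 114 ± 16.2 after saline (fold 1.28, exact permutation p = 0.0152). After ethanol it was 99.6 ± 21.8 against 81.9 ± 14.7 RPM (fold 0.822, exact permutation p = 0.132). The interaction was -0.62 (SE 0.19, permutation p = 0.0068), with a 95% interval of -1.01 to -0.23. It was -0.74 in females and -0.49 in males, and without any one library it ranged from -0.72 to -0.50. The precursor mir-872 gave -0.21 (SE 0.13, permutation p = 0.136).

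miR-325-3p, from chromosome X, had the narrowest spread of the leading names. Its lowest, median and highest levels were 271, 279 and 297 RPM in the saline non-enriched, 209, 254 and 276 in the saline enriched, 212, 244 and 295 in the ethanol non-enriched and 242, 274 and 283 in the ethanol enriched libraries. After saline 5 of the 6 enriched libraries lay below every non-enriched one, and replicate F3 stood apart below the other enriched libraries at 209 RPM. Its interaction was 0.28 (SE 0.11, permutation p = 0.00892), with a housing effect of 0.11 (SE 0.08) after ethanol and -0.17 (SE 0.08) after saline. miR-9a-3p, a strand of the neural progenitor miRNA miR-9, had lowest, median and highest levels of 935, 1155 and 1289.9 RPM in the saline non-enriched, 980.3, 997 and 1054 in the saline enriched, 801, 971 and 1179 in the ethanol non-enriched and 986, 1086 and 1259 in the ethanol enriched libraries. The interaction was 0.32 (SE 0.13, permutation p = 0.0118) for miR-9a-3p and 0.31 (SE 0.15, permutation p = 0.0407) for the more abundant strand miR-9a-5p. With median-ratio rescaling miR-9a-3p had 0.24 and a limma p above 0.05. All 12 leading names kept their direction under every alternative run and without each library in turn, but none reached an adjusted p under 0.05 there (smallest adjusted p = 0.366). Their choice by a small p on the same libraries made a change of direction unlikely in advance.

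**Figure D2:**
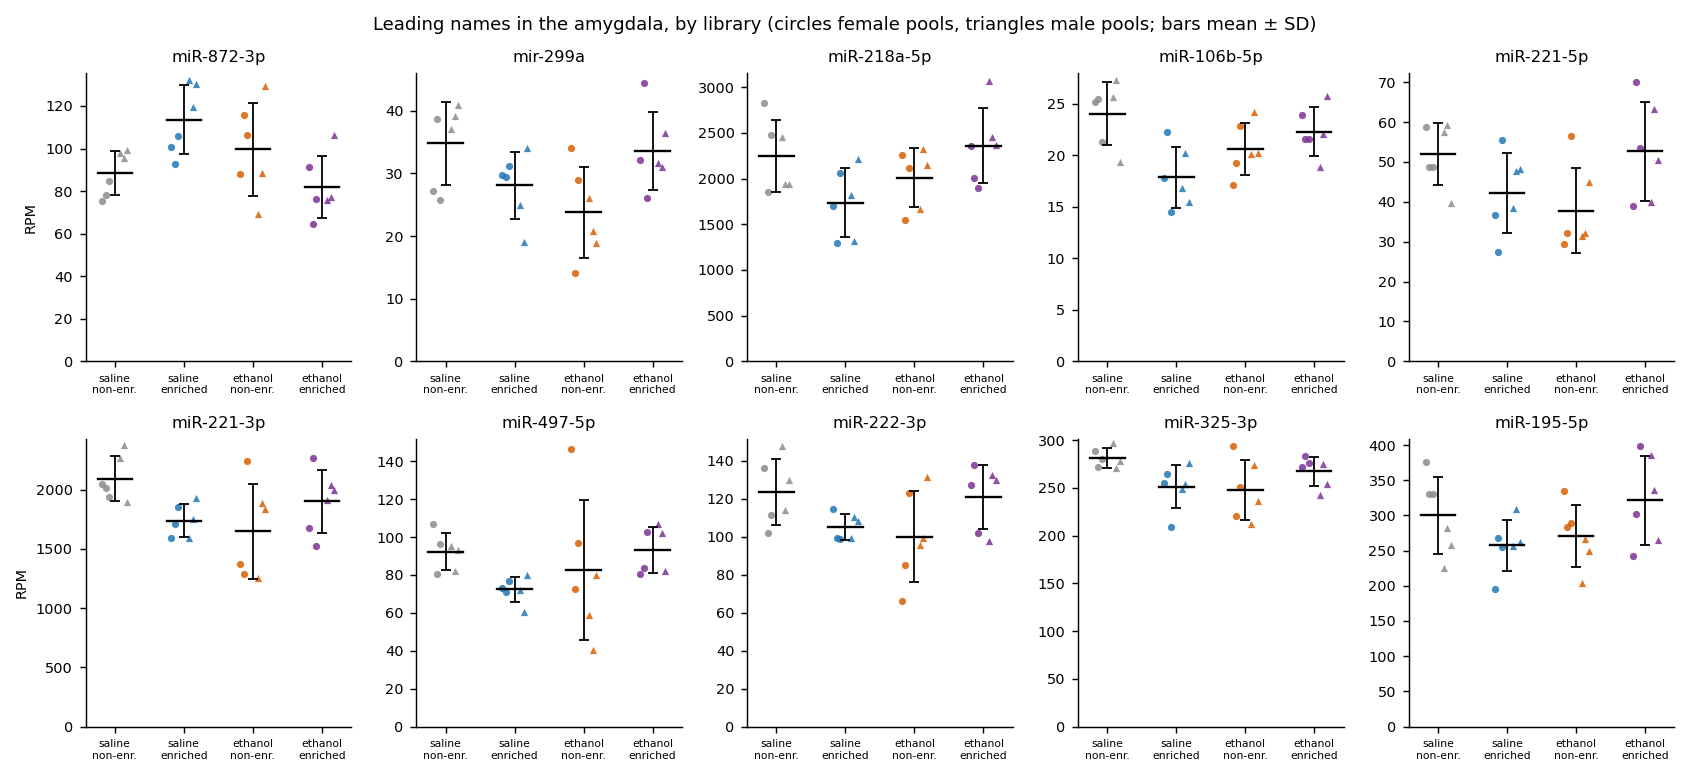
Levels in RPM (vertical axes, from 0) of 10 of the leading names in the 6 libraries of each group, circles for female and triangles for male pools, with the mean ± SD as bars. The saline enriched libraries sit below the saline non-enriched ones in 9 of the 10 panels by their mean, and above them for miR-872-3p, while the ethanol groups have the opposite order.

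The smallest p of all names belonged to a precursor at the limit of detection. mir-802 was listed at 0 in all 6 ethanol non-enriched libraries, at between 0.903 and 2.87 RPM in the 6 ethanol enriched ones, and at 0 in 3 libraries of each saline group. Only 1 library of all, a saline non-enriched one at 3.92 RPM, was above 3 reads, and the ethanol enriched libraries held 1.5 reads on average. Its interaction was 1.81 (SE 0.46, permutation p = 0.0067), 0.69 in females and 2.94 in males, and no fold is given, since both ethanol groups were under the floor. The next of these, mir-6319-1, was listed at 0 in 4 ethanol non-enriched, 6 ethanol enriched, 5 saline non-enriched and 1 saline enriched libraries, and its interaction was -1.06 (SE 0.37, permutation p = 0.0181). mir-450b-1, of the miR-322 cluster on chromosome X, was measured better. Its lowest, median and highest levels were 7.84, 11.1 and 13.9 RPM in the saline non-enriched, 14.3, 17.2 and 29.2 in the saline enriched, 6.96, 12.9 and 16.9 in the ethanol non-enriched and 7.22, 13.2 and 18.7 in the ethanol enriched libraries. Every saline enriched library was above every saline non-enriched one, and such separation was found for 3 of 910 names (0.33%) after saline. The ethanol groups overlapped, and the interaction was -0.74 (SE 0.31, permutation p = 0.0462). Among the 21 tested names of that cluster it was the only one with a p under 0.05, and miR-351-3p (-0.77, SE 0.38, permutation p = 0.186) was next.

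The study named a list of miRNAs changed by ethanol and reversed by enrichment, with 7 names in these data. The list was chosen on these same amygdala libraries, so it is no independent evidence of a direction. The study set the ethanol effect in non-enriched rats against the enrichment effect after ethanol. Saline enriched rats had no part in that, but they enter the interaction, so the measures differ. The study also had microarrays of the same pooled RNA, not used here, for miR-384-5p and for the enrichment effect in miR-204-5p. Of the 7 names of the list, 3 had a positive and 1 a negative interaction with a p under 0.05. They were mir-299a and miR-222-3p, already described, miR-6329 and miR-301b-3p. miR-6329 had lowest, median and highest levels of 4.60, 7.03 and 11.4 RPM in the saline non-enriched, 1.84, 4.88 and 8.43 in the saline enriched, 0, 3.83 and 5.03 in the ethanol non-enriched and 4.20, 5.45 and 9.26 in the ethanol enriched libraries. The saline non-enriched libraries were the highest as a group and the ethanol non-enriched ones the lowest, with overlap, and the group means were 2.83 to 6.50 reads. Its interaction was 1.47 (SE 0.56, permutation p = 0.00474). miR-301b-3p, whose seed AGUGCAA is shared with miR-130a-3p and miR-130b-3p, had levels of 0, 1.13 and 5.52 RPM in the saline non-enriched, 0.936, 3.68 and 9.65 in the saline enriched, 1.61, 5.70 and 10.1 in the ethanol non-enriched and 0, 2.01 and 7.85 in the ethanol enriched libraries. Values were spread widely within every group and rested on 2.33 to 4.50 mean reads, and the interaction was -2.20 (SE 0.85, permutation p = 0.0162). The relatives of the same seed gave 0.02 (SE 0.22, permutation p = 0.945) for miR-130a-3p and 0.41 (SE 0.41, permutation p = 0.521) for miR-130b-3p.

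miR-384-5p, a brain miRNA with the seed of the miR-30 family, had lowest, median and highest levels of 2522, 2723 and 2982 RPM in the saline non-enriched, 2423, 2647 and 2997 in the saline enriched, 2075, 2492 and 2704 in the ethanol non-enriched and 2314, 2721 and 3149 in the ethanol enriched libraries. All 4 groups overlapped, and its interaction was 0.20 (SE 0.12, permutation p = 0.0944), with a 95% interval of -0.05 to 0.45. All 17 tested names of the miR-30 family had a positive interaction, against 513 of the 910 names, but none had a p under 0.05 and their median was 0.12. The smallest p of the family was that of miR-30a-3p, with an interaction of 0.22 (SE 0.12, permutation p = 0.0828). Median-ratio rescaling lowered the interaction to 0.14 for miR-30a-3p and 0.12 for miR-384-5p, so the count of positive names may depend on the scaling.

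miR-204-5p, the last of these, is a miRNA of the choroid plexus and the retinal pigment epithelium, and its levels differed far more between libraries than between groups. The lowest, median and highest levels were 3085, 7583 and 30570.5 RPM in the saline non-enriched, 3453, 13345 and 31896 in the saline enriched, 3500.2, 26156 and 122453 in the ethanol non-enriched and 3928, 14582 and 36484 in the ethanol enriched libraries. In every group some libraries were several times higher than others, and the highest 2 of all were ethanol non-enriched replicates F2 and M3. The interaction was -1.42 (SE 1.45, permutation p = 0.314), with a 95% interval of -4.48 to 1.64, and that of mir-204 was -1.44 (SE 1.49, permutation p = 0.318). Other miRNAs of the choroid plexus varied in the same libraries. miR-448-3p, encoded in the serotonin receptor gene Htr2c, had levels of 4.07, 9.70 and 59.971 RPM in the saline non-enriched, 9.63, 41 and 117 in the saline enriched, 10.9, 76.9 and 179 in the ethanol non-enriched and 2.70, 36.1 and 85 in the ethanol enriched libraries, with the same ethanol non-enriched replicates F2 and M3 at the top. Its interaction was -2.36 (SE 1.38, permutation p = 0.0885), and that of mir-448 was -1.78 (SE 1.52, permutation p = 0.226). Over the list of 11 choroid plexus names, 0 had a p under 0.05 and the median interaction was -1.44. The summed level of its mature names ranged between 3853 and 131324 RPM in ethanol non-enriched, 4301 and 40036 in ethanol enriched, 3424 and 34815 in saline non-enriched, and 3665 and 38249 in saline enriched libraries. No name of the list was at 0 in all libraries.

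miRNAs of ciliated cells were highest in the same libraries. miR-449a-5p, of a family expressed in cells with many cilia, had lowest, median and highest levels of 0, 43 and 102 RPM in the saline non-enriched, 11.1, 36.3 and 220.1 in the saline enriched, 3.77, 169.6 and 358 in the ethanol non-enriched and 11.2, 42.5 and 195 in the ethanol enriched libraries, and an interaction of -1.59 (SE 1.74, permutation p = 0.372). miR-34b-5p, with the same seed, ranged from 0 to 321 RPM over the 24 libraries, with an interaction of -1.65 (SE 1.88, permutation p = 0.392). For both, ethanol non-enriched replicates F2, M3 and F1 were the highest libraries, and all groups overlapped. The 9 tested names of the list had a median of -1.34 and 0 had a p under 0.05, and the summed level of the mature names ranged between 254 and 14274 RPM in ethanol non-enriched, 447 and 9288 in ethanol enriched, 157 and 7118 in saline non-enriched, and 226 and 8571 in saline enriched libraries. The epithelial miR-200 and miR-183 families had a median of 0.77 over 15 tested of 19 names, 12 of them positive and 0 with a p under 0.05. The most abundant of them, miR-182 (mean 343 RPM), had -0.27 (SE 1.16, permutation p = 0.802), and its precursor mir-182 -0.28 (SE 1.16, permutation p = 0.793). miR-200a-3p, with the smallest p of that list, was listed at 0 in 6 of 24 libraries and reached 36 RPM in an ethanol enriched one, and its interaction was 2.13 (SE 1.41, permutation p = 0.109). mir-96 (0.79, SE 0.56, permutation p = 0.261) was above 3 reads in 1 library. The part of these cell types in the leading names was not tested.

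**Figure D3:**
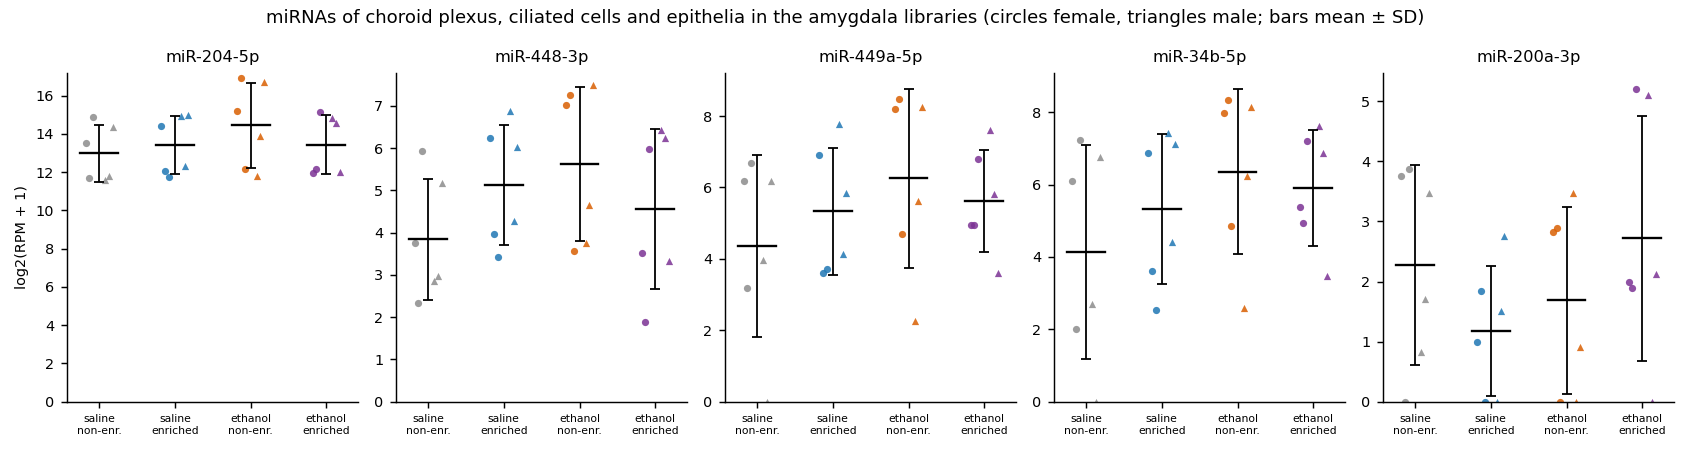
Levels on the log2(RPM + 1) scale (vertical axes) of miRNAs of choroid plexus (miR-204-5p, miR-448-3p), ciliated cells (miR-449a-5p, miR-34b-5p) and epithelia (miR-200a-3p) in the 6 libraries of each group, circles for female and triangles for male pools, with mean ± SD. Libraries of one group differ by several units, and the groups overlap in every panel.

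In the remaining lists of brain cell types and functions the counts are to be read against the 3.85% of all names with a p under 0.05. Of the neuronal names, 1 of 28 had such a p, miR-9a-3p. Of these names 24 of 28 were positive, against 513 of all 910 names, with a median of 0.24. Of the names regulated by activity and acting at synapses (miR-132, miR-212, miR-134, miR-138 and miR-129), 0 of 18 did, with a median of 0.13. miR-138-5p, which limits the size of dendritic spines, had 0.27 (SE 0.18, permutation p = 0.152), and mir-138-1 0.33 (SE 0.23, permutation p = 0.161). The oligodendrocyte names miR-219 and miR-338 had a median of -0.27 with 1 of 10 positive and 0 past the threshold. There miR-219a-5p had -0.52 (SE 0.46, permutation p = 0.345) and the scarce strand miR-219a-1-3p 0.50 (SE 0.47, permutation p = 0.343). miR-219a-5p was highest in ethanol non-enriched replicate F1, at 154 RPM, and ethanol enriched replicate F3, at 138 RPM. Of the let-7 family, 0 of 33 had a p under 0.05, with a median of 0.07, and let-7c-1 (0.28, SE 0.18, permutation p = 0.233) and let-7a-2-3p (-0.82, SE 0.56, permutation p = 0.188) had the smallest p. In the miR-29 family the count was 0 of 12 and the median 0.17, with mir-29c-2 at 0.19 (SE 0.12, permutation p = 0.129) and miR-29b-3p at 0.28 (SE 0.19, permutation p = 0.134).

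For lists of cells outside the nervous tissue the count with a p under 0.05 was 0 of 13 for microglial and immune names, 0 of 13 for vascular and mesenchymal names, 0 of 5 for red blood cell names and 0 of 8 for muscle names. Medians were -0.03, -0.02, -0.40 and 0.27, in this order. miR-142-3p, specific to blood-derived cells, had a lower mean in ethanol enriched (1.31 ± 1.23 RPM) than in ethanol non-enriched libraries (3.32 ± 1.23 RPM, SD, n = 6, exact permutation p = 0.0216) at 1.17 to 2.67 mean reads, and its interaction was -0.92 (SE 0.51, permutation p = 0.103). The abundant strand miR-142-5p, with a mean of 242 RPM over the 24 libraries, had -0.05 (SE 0.25, permutation p = 0.837), and the precursor mir-142 -0.03 (SE 0.16, permutation p = 0.836). miR-146b-5p, a regulator of innate immune signalling, was among the most abundant names and had 0.23 (SE 0.25, permutation p = 0.338). The red blood cell names gave -0.55 (SE 0.50, permutation p = 0.326) for mir-451 and -1.24 (SE 0.89, permutation p = 0.195) for miR-144-5p, and the summed level of the mature names ranged between 8.96 and 56.9 RPM. The others with the smallest p of their list were miR-199a-3p (-0.39, SE 0.30, permutation p = 0.263), miR-199a-5p (0.74, SE 0.83, permutation p = 0.458), miR-133b-3p (0.30, SE 0.55, permutation p = 0.662) and mir-1 (0.27, SE 0.48, permutation p = 0.649). Of names reported in the field as sensitive to ethanol in neural progenitors (miR-9a, miR-21 and miR-153), 1 of 11 had a p under 0.05, again miR-9a-3p, and the median was -0.05. Of names tied to stress and serotonin, 0 of 13 did, with a median of -0.42, and miR-135a-5p had -0.65 (SE 0.43, permutation p = 0.131) and mir-135a -0.62 (SE 0.41, permutation p = 0.134). In the miR-17-92 and miR-106b-25 clusters the second smallest p was that of mir-17-1 (0.53, SE 0.35, permutation p = 0.139).

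**Figure D4:**
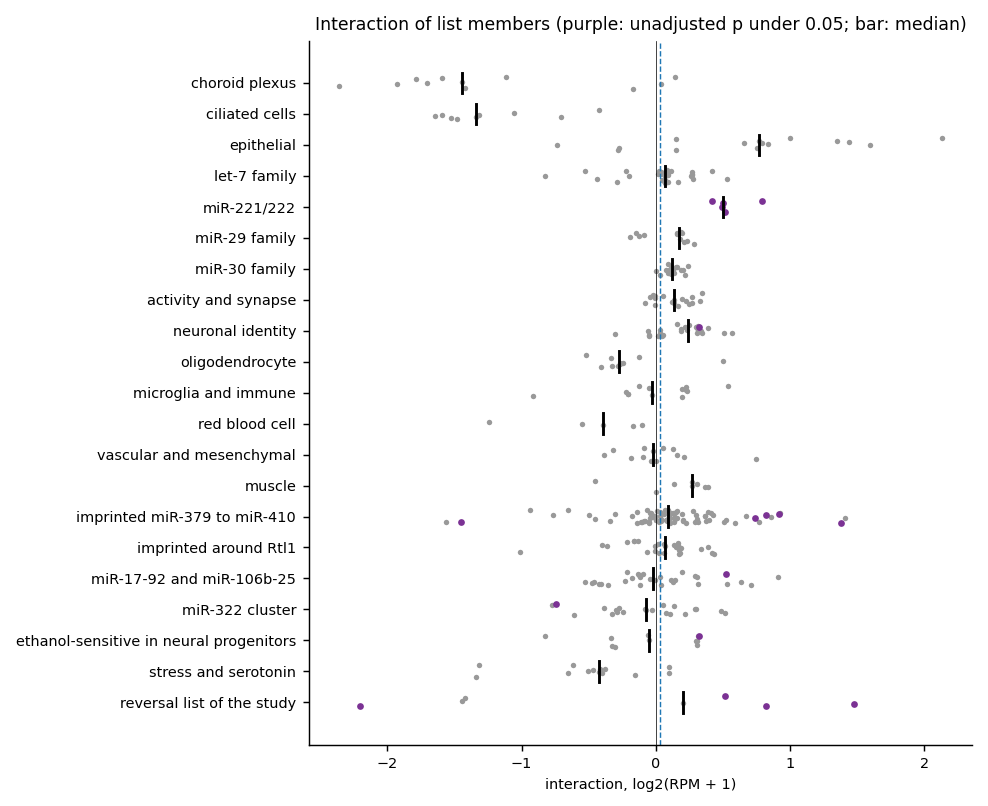
Interaction on the log2(RPM + 1) scale (horizontal axis) of each tested member of 21 lists (rows), with purple points for an unadjusted p under 0.05, black bars for the list's median and the dashed line for the median of all 910 names, 0.03. The 5 names of miR-221 and miR-222, which are not independent of each other, are all purple and positive. The choroid plexus list has a median of -1.44 with no purple point.

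The interaction was also taken within each sex, from 3 libraries per group. In females 29 of 910 names (3.19%) had an unadjusted p under 0.05, 18 (1.98%) positive and 11 (1.21%) negative. In males 25 did (2.75%), 18 (1.98%) positive and 7 (0.769%) negative. With median-ratio rescaling the split in males was 14 positive and 15 negative. None passed after adjustment (smallest adjusted p = 1 in females and 0.283 in males). The interaction had the same direction in both sexes in 34 of the 35 names with an interaction p under 0.05, against 516 of all 910 names. That agreement is in part built into an average over the sexes. A difference between females and males had an unadjusted p under 0.05 in 20 names (2.2%), 9 (0.989%) positive and 11 (1.21%) negative, and none after adjustment (lowest adjusted p = 1). The smallest p of the difference was that of mir-130b, 1.33 in females and -1.10 in males (SE of the difference 0.73), and the next in miR-3085, -1.65 and 2.54 (SE of the difference 1.33). Their group means were 3.83 to 6.50 and 3.33 to 4.67 reads. Of the leading names, miR-497-5p came closest, with 0.16 in females and 1.08 in males (SE of the difference 0.47).

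In the 24 ventral striatum libraries the same interaction had an unadjusted p under 0.05 in 24 of 933 names (2.57%) and none after adjustment (lowest adjusted p = 1). Both regions were taken from the same rats, but the fit of the regions together treated all libraries as independent. Libraries with consecutive numbers, 1 of each region from the same sex and group, had a within-pair correlation of 0.052. The difference between the regions, amygdala minus ventral striatum, had an unadjusted p under 0.05 in 34 of 968 names (3.51%), 24 positive and 10 negative (14 and 13 with median-ratio rescaling), and none after adjustment (lowest adjusted p = 0.994). The smallest p were those of mir-802, with a difference of 2.20 (SE 0.61), and miR-872-3p, with -0.84 (SE 0.28). The interaction of miR-872-3p in the ventral striatum was 0.22 (SE 0.21). For miR-218a-5p the ventral striatum gave -0.35 (SE 0.34) and the difference was 0.96 (SE 0.41). For mir-299a they were -0.16 (SE 0.25) and 0.98 (SE 0.37), and for miR-106b-5p -0.34 (SE 0.30) and 0.87 (SE 0.34). The leading names, these included, were chosen by their amygdala interaction, which by itself favours a difference between the regions. Their differences are therefore no evidence of an effect particular to the amygdala. In miR-221-3p the ventral striatum value was -0.00 (SE 0.46) and the difference was 0.50 (SE 0.51). For miR-204-5p the ventral striatum gave 0.06 (SE 0.22), an error much smaller than in the amygdala.

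**Figure D5:**
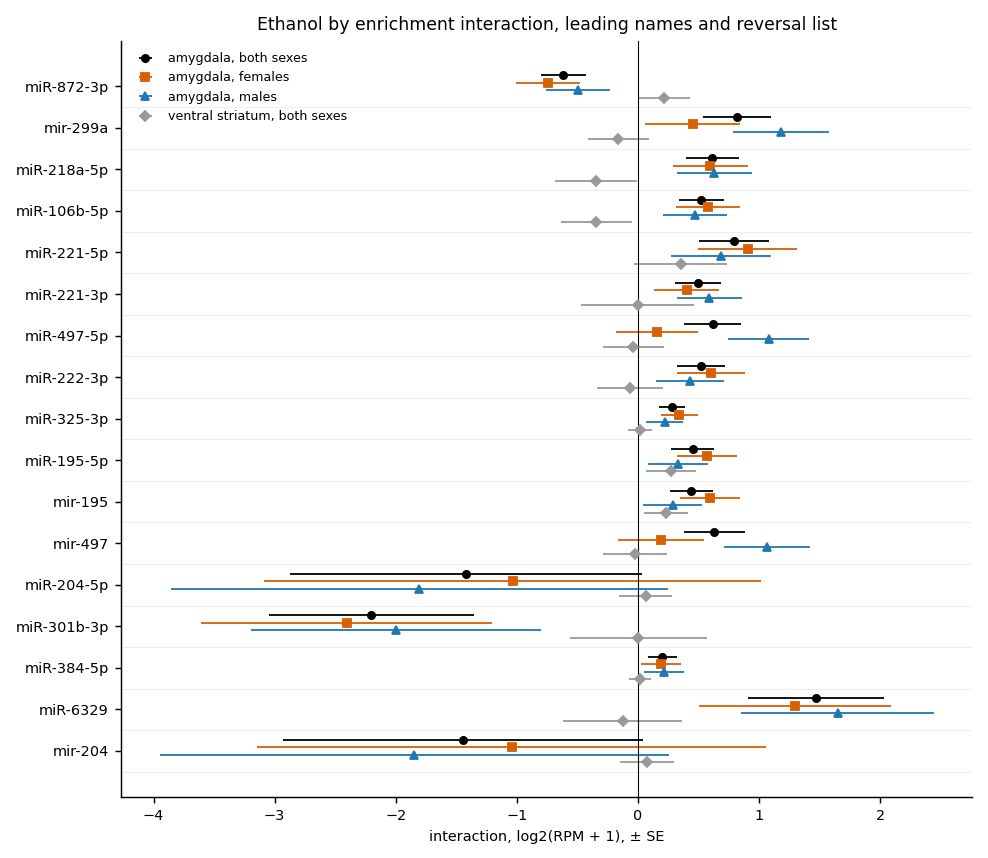
Interaction ± SE on the log2(RPM + 1) scale (horizontal axis) of the 12 leading names and of the study's reversal list (rows), in the amygdala of both sexes, of females and of males, and in the ventral striatum. The leading names, chosen to have the same sign in both sexes, lie between -0.62 and 0.82 for the amygdala of both sexes together, and mir-204, miR-204-5p and miR-301b-3p have the widest errors.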

How the data were processed

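Small RNA of pooled amygdala (24 libraries) and ventral striatum (24) was sequenced. The authors trimmed reads at Phred 20, aligned them to Rn5 with Bowtie, counted names of miRBase 21 and scaled the counts to RPM in Partek (versions are not given in the sources used here). The deposited signal values add up to 1000000 for mature and for precursor names separately, and reads with several matches were divided, since 679 amygdala values were above 0 and under 0.01 RPM. The design assumed a plain RPM, and the same test was kept. Lines that shared a name were joined. Of the low mature values from which the worth of 1 read was found, 92.3 to 99.6% were whole multiples of it (within 0.02), so counts were not tested.

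The interaction was fitted to log2(RPM + 1) with limma 3.58.1 in R 4.3.3 (cell means of sex and group, trended empirical Bayes, Benjamini-Hochberg adjustment over all tested names). Unadjusted limma p-values served for counts and rankings only. The pseudocount understates differences of low names. Males and females weighed equally. The 2-sided permutation tests used scipy 1.17.1 on means of log2(RPM + 1) (924 splits for 6 against 6). The fits were tested on simulated data. Named were the 12 leading names, the 6 smallest p, the study's reversal list, the 2 smallest p of each of 21 lists, and the 2 smallest p of the sex and region differences. Precursors, opposite strands, seed mates and other names with a limma p under 0.05 were added after their values were seen. The members and lists were chosen with earlier results of these data known. Alternatives covered the pseudocount, filter, scaling, model, depth, block and each library left out. The filter of more than 3 reads in 6 libraries was chosen after seeing the data.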

Additional observations from a re-analysis of the deposited data

Results flagged for a closer look

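Groups of 6 libraries were examined for the leading names, those with the smallest p, the reversal list and the names of the sex and region differences, 84 groups in all. In 3 of them a library lay far from the other 5 by Dixon's test on the log2(RPM + 1) scale at the 95% level. About 1 in 20 groups would pass it by chance. Levels are given in RPM. miR-325-3p in saline enriched replicate F3 was at 209.5 RPM, with the others between 249 and 276 RPM, and without that library its interaction was 0.23 (adjusted p = 0.99 by limma). mir-6319-1 was at 1.32 RPM in saline non-enriched replicate M1 and at 0 in the others, a value of 2 reads. miR-6329 was at 0 in ethanol non-enriched replicate M2, with the others between 2.44 and 5.03 RPM, that is 2 to 5 reads.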

How the results depend on the processing

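With all libraries included, the count of names with an adjusted p under 0.05 was 0 under each of the 13 alternatives to the interaction over both sexes (smallest adjusted p 0.524 to 1), the 12 to the interaction by sex and the 7 to the difference between regions. Without male saline non-enriched replicate 3 of the amygdala it was 1 over both sexes, 1 in males and 1 between regions, in each case mir-802, and it was 1 between regions (miR-191b) without ventral striatum male ethanol enriched replicate 3. The count at an unadjusted p under 0.05 was 35 over both sexes and 19 among names with a mean of at least 10 RPM, where 17 were positive and 2 negative, and 21 among mature names alone. Fewer names were tested there, 582 and 498. It was 28 without female saline non-enriched replicate 1 and 57 without female ethanol non-enriched replicate 3. In females the count was 29, against 5 at 10 RPM, 17 for mature names and 11 with more than 3 reads, and it was 14 without saline non-enriched replicate 1, 19 without saline enriched replicate 1, 16 without ethanol non-enriched replicate 2, 46 without ethanol non-enriched replicate 3 and 45 without ethanol enriched replicate 3. In males it was 25, against 11, 15 and 13, and from 17 to 34 without single libraries. Females minus males gave 20, against 4 at 10 RPM and 19 to 39 without single libraries (39 without female ethanol enriched replicate 3). The regions gave 34, against 21 at 10 RPM and 22 to 44 without single libraries (22 without ventral striatum male saline non-enriched replicate 3 or amygdala male saline enriched replicate 2). With median-ratio rescaling the split over both sexes was 18 positive and 13 negative with a median of -0.01 over all names, so the excess of positive names depended on the scaling. Of 1947 values of named miRNAs under an alternative, 1940 kept their direction and side of the adjusted threshold. The interaction was reversed for miR-199a-5p on unlogged RPM (-0.467), and, without single libraries, for mir-130b, miR-133b-3p and mir-1, whose values without single libraries ranged from -0.0962 to 0.267, from -0.0345 to 0.599 and from -0.0788 to 0.554. The causes were not tested. Replicate numbers did not pair the libraries: over 36 pairs with the same number the correlation of deviations had a median of -0.034 and a range of -0.751 to 0.739, 14 were over 0.1, and 7 of 24 libraries correlated best with their own number. With the replicate number as a block the unadjusted count was 45 over both sexes, 34 in females, 29 in males, 22 between sexes and 36 between regions, as it was with consecutive library numbers as a random block, and the adjusted count was 0 in each. Depth limits the names near 3 reads, mir-802 and miR-541-3p among them.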

Other observations

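The other names with an unadjusted interaction p under 0.05 by limma in the amygdala were singled out after their values were seen. Only miR-423-3p, a strand of a widely expressed hairpin, was well measured, with a mean of 165 RPM over the 24 libraries and an interaction of -0.38 (SE 0.18, permutation p = 0.0332). miR-27a-5p, the minor strand of a hairpin of the miR-23a cluster, had -1.70 (SE 0.75, permutation p = 0.0393) at a mean of 2.04 RPM. The precursor of miR-301b-3p, mir-301b, had -2.08 (SE 0.80, permutation p = 0.0162). The other negative ones were miR-6319 at -1.39 (SE 0.51, permutation p = 0.0404), miR-874-5p at -1.76 (SE 0.65, permutation p = 0.0127), miR-3589 at -1.57 (SE 0.72, permutation p = 0.0563) and miR-6324 at -2.45 (SE 1.15, permutation p = 0.069). Positive ones were miR-879-3p at 1.41 (SE 0.58, permutation p = 0.0134) and miR-181d-3p at 0.80 (SE 0.37, permutation p = 0.0855). Each of these, miR-423-3p apart, had a mean between 0.306 (miR-181d-3p) and 4.59 RPM (miR-3589), near or under the level of 3 reads.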
